A study of Homo sapiens with 5 samples.

Results

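The MAX network is the family of transcription factors that share MAX, or its relative MLX, as a dimer partner. The 10 network genes described here were taken from a fixed list: the MYC paralogs MYCN and MYCL, the common partner MAX, the repressors MXD1, MXD3, MXD4, MXI1 and MNT, the second hub MLX, and MGA. They are 10 of the 20033 protein-coding genes of GENCODE release 44 on chromosomes 1 to 22, X and Y. MYC itself was not on the list and is described beside it. For each gene, all peaks from 5 kb upstream of the gene to its end were collected on GRCh38, which gave 45 of the 49781 peaks in the 4 peak lists.

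The lists come from CUT&RUN, in which an antibody tethers a nuclease to a DNA-bound protein and the released fragments are sequenced. Untreated, proliferating OVCAR8 cells, an established human ovarian carcinoma line of epithelial cells with amplified MYC and HSF1, were crosslinked briefly with formaldehyde and incubated with a MYC antibody (2 libraries), an HSF1 antibody (2 libraries) or IgG (1 library, the background for all 4 lists). No perturbed or non-amplified cells were part of the data, and nothing in the labels says whether the 2 replicates of an antibody came from separate cultures. The libraries held 8265647 to 10084407 fragments after filtering, and the lists used here held 25623 (MYC replicate 1), 13278 (MYC replicate 2), 6421 (HSF1 replicate 1) and 4459 (HSF1 replicate 2) peaks. MYC peaks were called at a stricter p-value (1e-10) than HSF1 peaks (1e-04), so the presence of a peak does not mean the same in both. As a check of the labels, the chaperone genes HSPH1 and DNAJB1, known HSF1 targets, had HSF1 fold enrichments of 23.9 and 25.1 in replicate 1 and 52.4 and 31.4 in replicate 2. Both also had MYC peaks, of 33.3 and 37.9 in replicate 1 and 23.0 and 20.9 in replicate 2. The known MYC targets NCL and ODC1 had MYC fold enrichments of 31.9 and 30.2 in replicate 1 and 32.3 and 27.9 in replicate 2, and no HSF1 peak. The authors show ODC1 as a gene bound only by MYC in these same data, so it is no independent check. In replicate 1 the MYC values of HSPH1 and DNAJB1 were above those of NCL and ODC1, and in replicate 2 below them. The HSF1 peaks, and not the MYC peaks, thus separated the chaperone genes from NCL and ODC1.

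As background, MYC, MYCN and MYCL bind DNA as dimers with MAX, preferably at the E-box CACGTG, and mostly activate transcription. MXD proteins, MXI1 and MNT compete for MAX and bring SIN3 corepressors to the same kind of site. MLX pairs with some of these repressors and with the glucose-responsive factors MLXIP and MLXIPL, and MGA is a very large MAX partner found in a noncanonical Polycomb complex. HSF1 is the main heat shock factor and binds, as a trimer, arrays of inverted nGAAn units called heat shock elements.

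The E-boxes in the MYC sites of these genes are shown first, since they are the letters that MYC and every MAX partner are known to read. Peaks of the 2 MYC lists that overlapped were merged into 18 sites in the 10 windows, and 10 of these sites held 16 E-boxes in all. No share over all genes is given for merged sites, so these counts cannot be read as a trait of the network. By single peaks, 9 of 19 in replicate 1 and 8 of 18 in replicate 2 held an E-box. Of all MYC peaks, 18.5% and 21.3% did, but the network peaks were longer. The E-box nearest to the summits of the promoter site is given for 7 genes, on the strand of the gene, with CACGTG in capitals and 12 bases on either side (GRCh38):
MAX, chr14:65102849-65102878, minus strand: tccagctccctcCACGTGtcctgtcttccc
MXD1, chr2:69914273-69914302, plus strand: ccccgcagcagcCACGTGgcgcctgcccta
MXD3, chr5:177312264-177312293, minus strand: ccccgcggcaccCACGTGcagcggctgggc
MXD4, chr4:2262330-2262359, minus strand: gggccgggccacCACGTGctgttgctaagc
MNT, chr17:2401236-2401265, minus strand: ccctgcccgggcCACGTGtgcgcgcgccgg
MLX, chr17:42567038-42567067, plus strand: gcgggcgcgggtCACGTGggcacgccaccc
MGA, chr15:41621725-41621754, plus strand: gcgctgaggcgtCACGTGgacgccacagcc

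These E-boxes lay close to a start site of their own gene, from 753 bp before it in MXD1 to 20 bp before it in MLX and 206 bp after it in MGA. The nearest MYC summit of either list was 82 bp away in MAX, 75 bp in MGA, 92 bp in MXD4, 112 bp in MXD1, 131 bp in MXD3, 147 bp in MNT and 210 bp in MLX. The summit of the other list was 625 bp away in MXD1, 348 bp in MLX and 94 to 156 bp in the others. In MXD1 the far summit was that of replicate 1, the list with the higher fold enrichment. MXI1 held its E-boxes at other sites of its window, away from its strongest peak, and the single MYCL site held none. The MGA E-box shown is at the upstream promoter, and the MGA site at the canonical start (24.9 and 19.7) held none. Another 2 stretches show the layout at the promoters of MXD3 and MXD4, from 12 bases beyond the E-box to 12 bases beyond the farther MYC summit, both upstream of the canonical start:
MXD3, chr5:177312125-177312293, minus strand: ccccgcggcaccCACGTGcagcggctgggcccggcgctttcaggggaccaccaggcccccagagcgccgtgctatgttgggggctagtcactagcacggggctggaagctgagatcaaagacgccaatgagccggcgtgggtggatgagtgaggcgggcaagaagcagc
MXD4, chr4:2262218-2262359, minus strand: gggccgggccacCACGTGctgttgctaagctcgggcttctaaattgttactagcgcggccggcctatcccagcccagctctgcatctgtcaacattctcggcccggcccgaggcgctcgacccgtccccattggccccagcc

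MYC peaks were called in both lists at 9 of the 10 genes, with MYCN the exception. The same was true of 45.4% of all protein-coding genes. Taken singly, MYC replicate 1 had a peak at 63.3% of all genes and MYC replicate 2 at 46.2%, with the same 9 network genes in each. Within 1 kb of an annotated start site, both lists had a peak at these 9 genes and at 40.1% of all genes. The 10 windows had a median length of 20.9 kb against 32.5 kb for all protein-coding genes, and a median of 8.5 annotated start sites per gene against 5.0. A MYC peak was thus frequent among all genes.

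Fold enrichment is the ratio of MYC signal at the summit to a background that the authors' peak caller derived from IgG. That background need not be the IgG signal at the summit itself. At the same pileup of 66 fragments in replicate 1, MXD4 had a ratio of 43.0 and MAX 28.7. The ratio was highest at 4 of the 5 repressor genes, with MXI1 lower. The strongest peaks of MXD3, MNT, MXD1 and MXD4 were the 4 highest of the network in each of the 2 lists, at 43.0 to 51.5 in replicate 1 and 22.1 to 38.2 in replicate 2. Over the 9 genes the median was 28.7 in replicate 1 and 20.2 in replicate 2, against 15.2 and 12.0 over all protein-coding genes with a peak. Counting only peaks within 1 kb of a start site, the medians of all genes were 14.6 and 11.7, and those of the 9 network genes did not change. MYC replicate 1 gave the higher value at 9 of 9 network genes, with a median ratio to replicate 2 of 1.62, and at 83.6% of the 9103 genes with a peak in both lists, where the median ratio was 1.40.

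**Figure D1:**
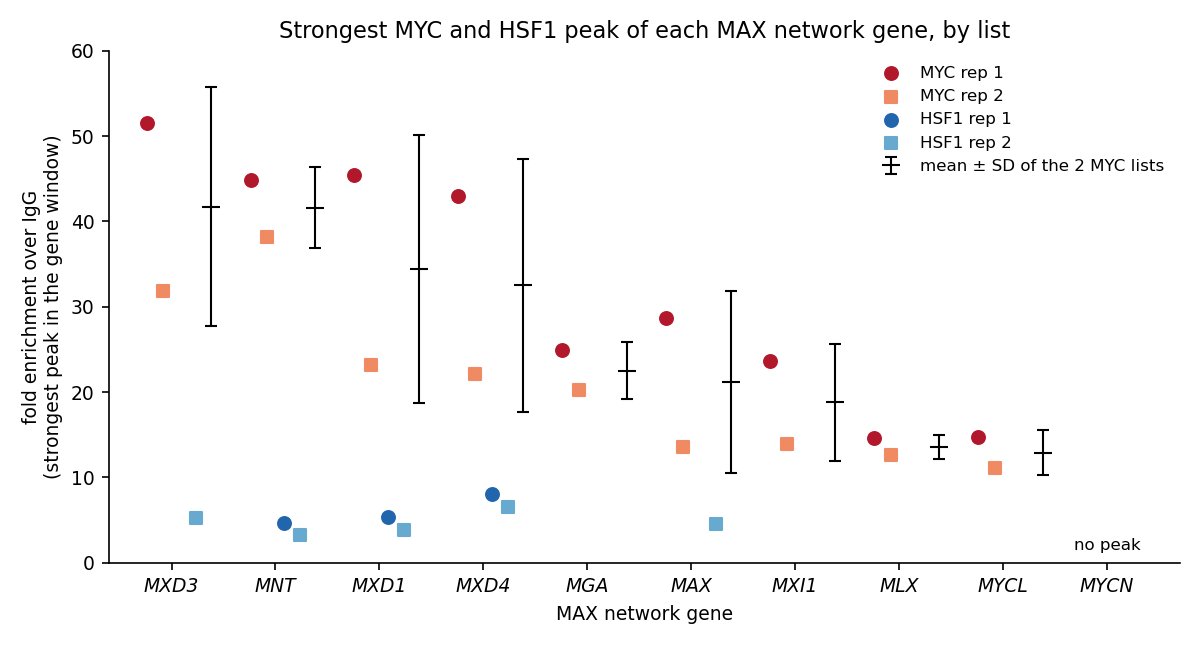
Each point is the fold enrichment over IgG of the strongest peak in the gene window in 1 list, for MYC (red and orange) and HSF1 (dark and light blue), and the black bars give the mean ± SD of the 2 MYC lists. MXD3, MNT, MXD1 and MXD4 stood above the other genes in both MYC lists, HSF1 values did not exceed 8.12, and MYCN had no peak.

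Among the MYC paralogs, MYCN and MYCL differed. MYCN, the paralog amplified in neuroblastoma, lies at chr2:15940550-15947007 and had no peak in any of the 4 lists. The nearest MYC peak was 348 kb upstream in both lists, with its nearest start site that of DDX1, and the nearest HSF1 peaks were 2350 kb downstream in replicate 1 and 300 kb upstream in replicate 2. The absence of a call says only that no MYC signal passed the threshold at this depth. MYCL (chr1:39895428-39902256) had 1 site, with fold enrichments of 14.8 and 11.1 (12.9 ± 2.62, SD, n = 2), the lowest mean of the 9 genes. The 2 MYCL summits lay 88 and 82 bp past the nearest of 3 annotated start sites, and the replicate 2 summit was in the 5′ UTR of exon 1 of the canonical transcript. Pileups there were 22 and 18 fragments, so this site rests on few fragments.

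MAX, the obligate partner, lies at chr14:65006174-65102695 and had 1 MYC site over its promoter. Fold enrichment was 28.7 in replicate 1 and 13.6 in replicate 2 (21.2 ± 10.7, SD, n = 2), a difference of 2.12-fold between the replicates. The summits lay 250 and 262 bp upstream of the nearest start site, and the merged site of 1606 bp held 3 E-boxes. Of all genes with a MYC peak, 92.1% were lower than MAX in replicate 1 but 62.5% in replicate 2, so the place of MAX depends on the list.

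The MXD genes encode repressors that pair with MAX in place of MYC. MXD3 (chr5:177301461-177312757) had the highest mean MYC fold enrichment of the network. Its promoter peak reached 51.5 in replicate 1 and 31.8 in replicate 2 (41.7 ± 14.0, SD, n = 2), with pileups of 165 and 134 fragments and summits 250 and 239 bp upstream of the canonical start. The MXD3 window also held a MYC site of 14.0 and 15.6 past the end of the canonical transcript, where the nearest start sites were those of RAB24 and PRELID1. That site belongs to the window by position and not to the MXD3 promoter.

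MXD1 (chr2:69897688-69942945) had 1 MYC site, at 45.5 and 23.2 (34.4 ± 15.7, SD, n = 2). Its summits, 129 and 642 bp upstream of the nearest start site, lay 513 bp apart within 1 broad peak. The annotated 5′ end of MXD1 is far upstream of the canonical start, and the peak sat at the canonical start. MXD4 (chr4:2247432-2262109) had 1 compact site of 647 bp at 43.0 and 22.1 (32.5 ± 14.8, SD, n = 2), with summits 144 and 121 bp upstream of the gene.

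MXI1 (chr10:110207605-110287365), a repressor of the same family with 37 annotated start sites, had 4 MYC sites and lower fold enrichment than the MXD genes in each list. The strongest was in intron 1 of the canonical transcript among internal start sites, at 23.6 in replicate 1 and 13.9 in replicate 2 (18.8 ± 6.84, SD, n = 2), with summits 69 and 76 bp from the nearest start. A second site in intron 1 had 22.3 and 11.5. The site at the 5′ end of the gene was nearest to the start of the lncRNA ENSG00000228417 and was the weakest, at 8.34 and 9.89. The fourth, in intron 3, was the only one of the 18 sites called in 1 list alone (13.2 in replicate 1). The strongest MXI1 site held no CACGTG but 29 matches to CACGCG, a related E-box, counted on both strands with overlaps.

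MNT, a broadly expressed MAX partner that represses MYC targets, had the longest MYC peak of the network. MNT (chr17:2384073-2401104) had 3 sites, each in both lists. At the 5′ end, a peak of 3371 bp in replicate 1 and 3077 bp in replicate 2 reached 44.9 and 38.2 (41.6 ± 4.73, SD, n = 2), with summits 293 and 302 bp upstream. A site in intron 1 had 22.9 and 11.6, and a site in intron 4 had 17.4 in both lists, with the same summit base. The intron 1 and intron 4 summits lay 108 to 260 bp upstream of internal start sites of MNT.

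MLX (chr17:42567072-42573239) and MGA (chr15:41621134-41773081) stand for the outer parts of the network. At the MLX promoter, fold enrichment was 14.6 and 12.6 (13.6 ± 1.43, SD, n = 2), with summits 19 bp before and 119 bp after the nearest start site. A weaker site upstream, at 7.20 and 5.84, was nearest to the start of COASY. MGA was occupied at both of its alternative promoters. The upstream one, at the 5′ end of the gene, had 21.7 and 20.2, and the canonical start, far downstream of it, had 24.9 and 19.7, so the strongest peak changed place between the lists and the 2 promoters did not differ beyond the replicates. A small site past the canonical start had 10.3 and 8.14.

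**Figure D2:**
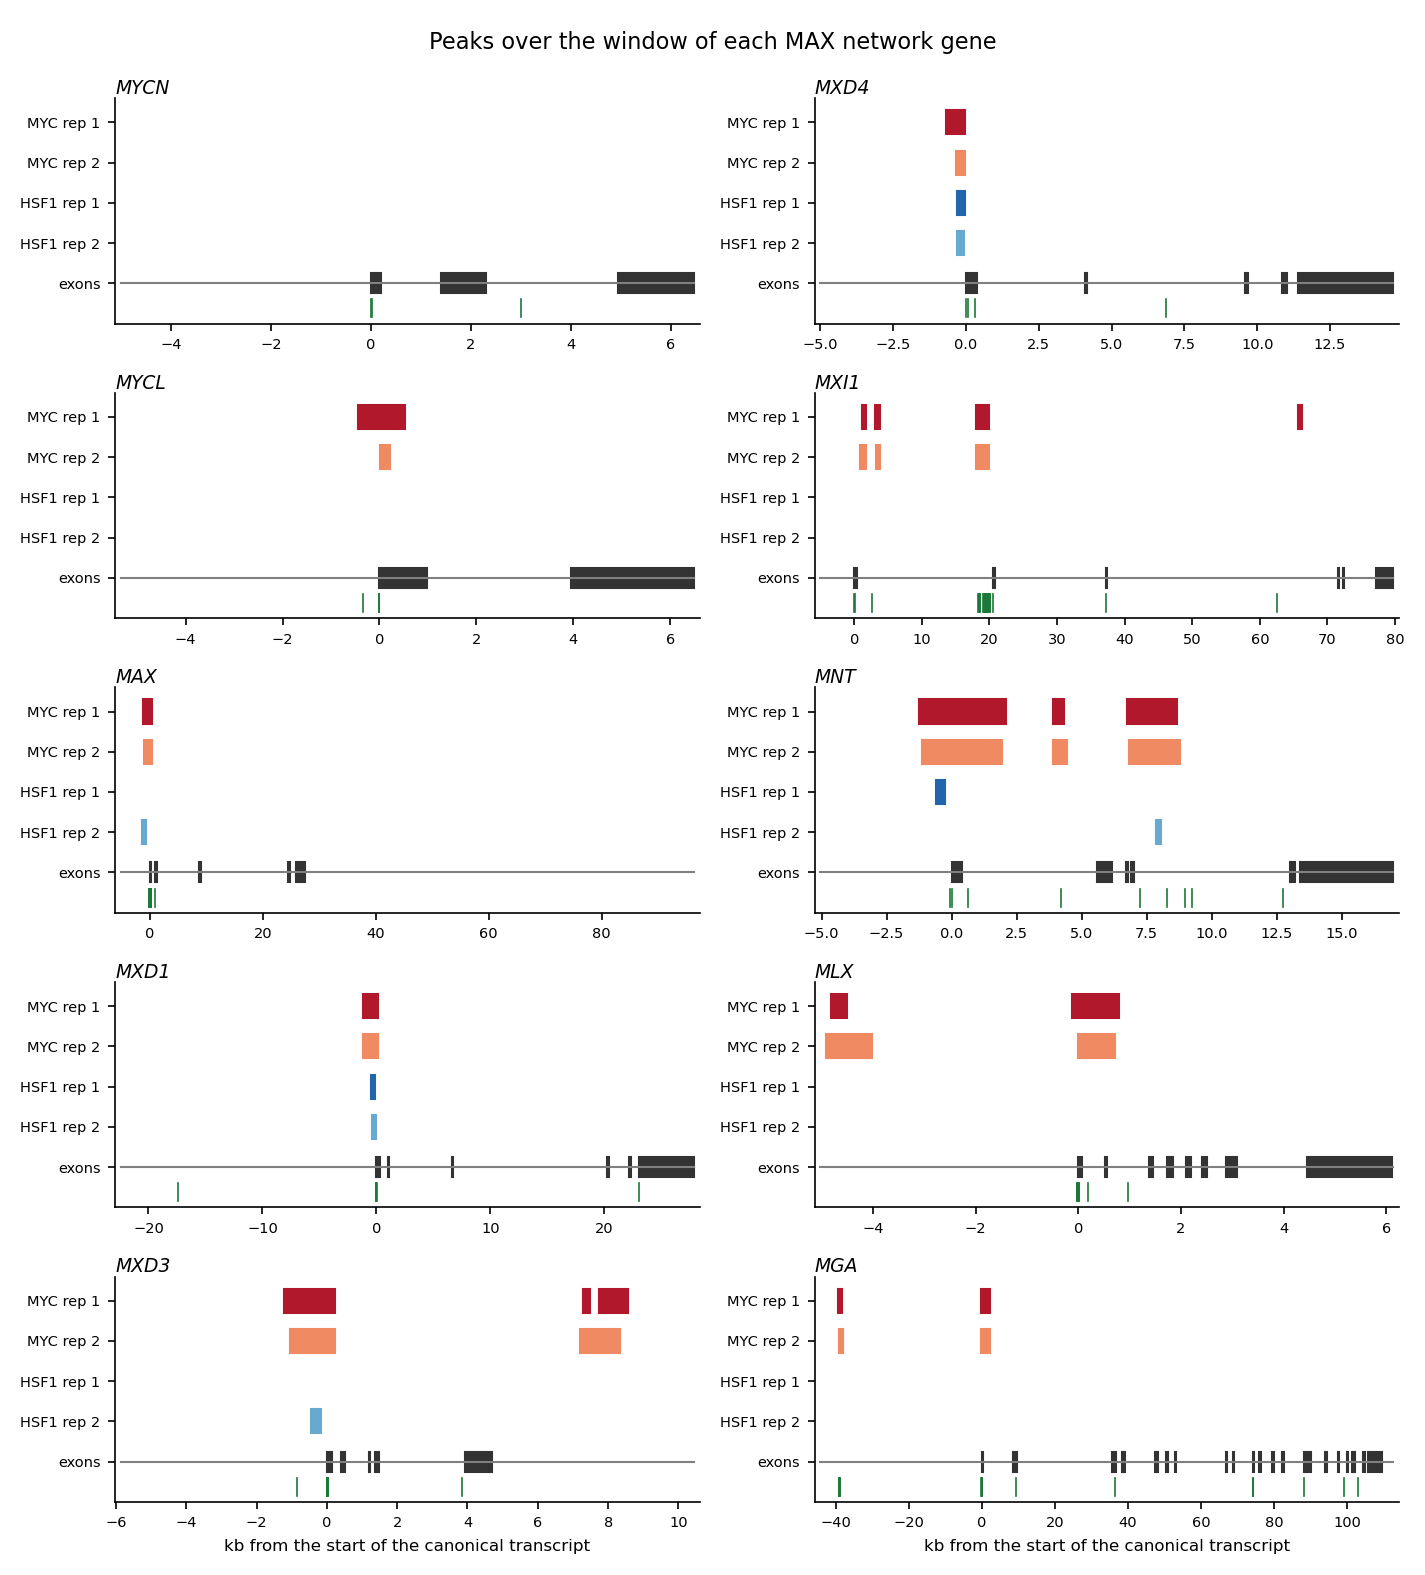
Each panel spans the window of 1 gene in kb from the start of its canonical transcript, drawn in the direction of transcription, with MYC peaks in red and orange, HSF1 peaks in dark and light blue, canonical exons in black and all annotated start sites as green ticks. MYC peaks sat at start sites in 9 genes, and MNT and MGA had several such sites. Of the MXI1 sites, the strongest lay closest to start sites of MXI1. The distal peaks of MXD3 and MLX lay at neighbouring genes.

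The strongest MYC peaks of the network lay near start sites. The strongest MYC summit was within 1 kb of a start site of the gene in both lists at 9 of 9 genes, against 73.3% of the 9103 protein-coding genes with a peak in both lists. Any annotated start site counted, and the network genes had more of them (median 8.5 against 5.0), which makes a hit easier. With the 5′ end of the gene alone the count was 6, and within 200 bp of any start site it was 4. Over the 18 strongest summits the distance ranged from 19 to 642 bp with a median of 148 bp. The G and C content of the 201 bp around the summits had a median of 64.7% over the 19 network peaks of replicate 1 and 65.5% over the 18 of replicate 2, against 57.7% and 63.2% in the whole lists. The whole lists are not limited to gene windows, so the sets compared differ in place.

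Ordered by mean MYC fold enrichment, the genes ran MXD3 (41.7), MNT (41.6), MXD1 (34.4), MXD4 (32.5), MGA (22.5), MAX (21.2), MXI1 (18.8), MLX (13.6) and MYCL (12.9). The values of the 2 replicates overlapped between every pair of neighbours in this order. Of the 36 pairs of genes, 16 did not overlap, and these set MXD3 and MNT apart from MAX, MGA, MXI1, MLX and MYCL, and set MXD1, MXD4 and MGA apart from MLX and MYCL. This spread includes the shift between the lists, in which replicate 1 was higher at 9 of 9 genes. Compared within each list, MXD3, MNT, MXD1 and MXD4 were above the other 5 genes in both lists, and 31 of the 36 pairs had the same order in both. This holds for fold enrichment and not for pileup. At its strongest peak MXD4 had pileups of 66 and 37 fragments. In replicate 1 MXI1 had 75 and MAX 66, and in replicate 2 MAX had 42, MGA 41 and MLX 39. With 2 libraries per antibody this is a description of the lists, and no test was made. Among all genes with a MYC peak, those with a lower value than MXD3 were 99.7% in replicate 1 and 98.6% in replicate 2, and those lower than MNT were 99.3% and 99.5%. For MXD1 these shares were 99.3% and 93.7%, and for MXD4 99.0% and 92.2%. MLX (46.4% and 55.3%) and MYCL (47.0% and 41.8%) were in the middle of the genes with a peak.

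**Figure D3:**
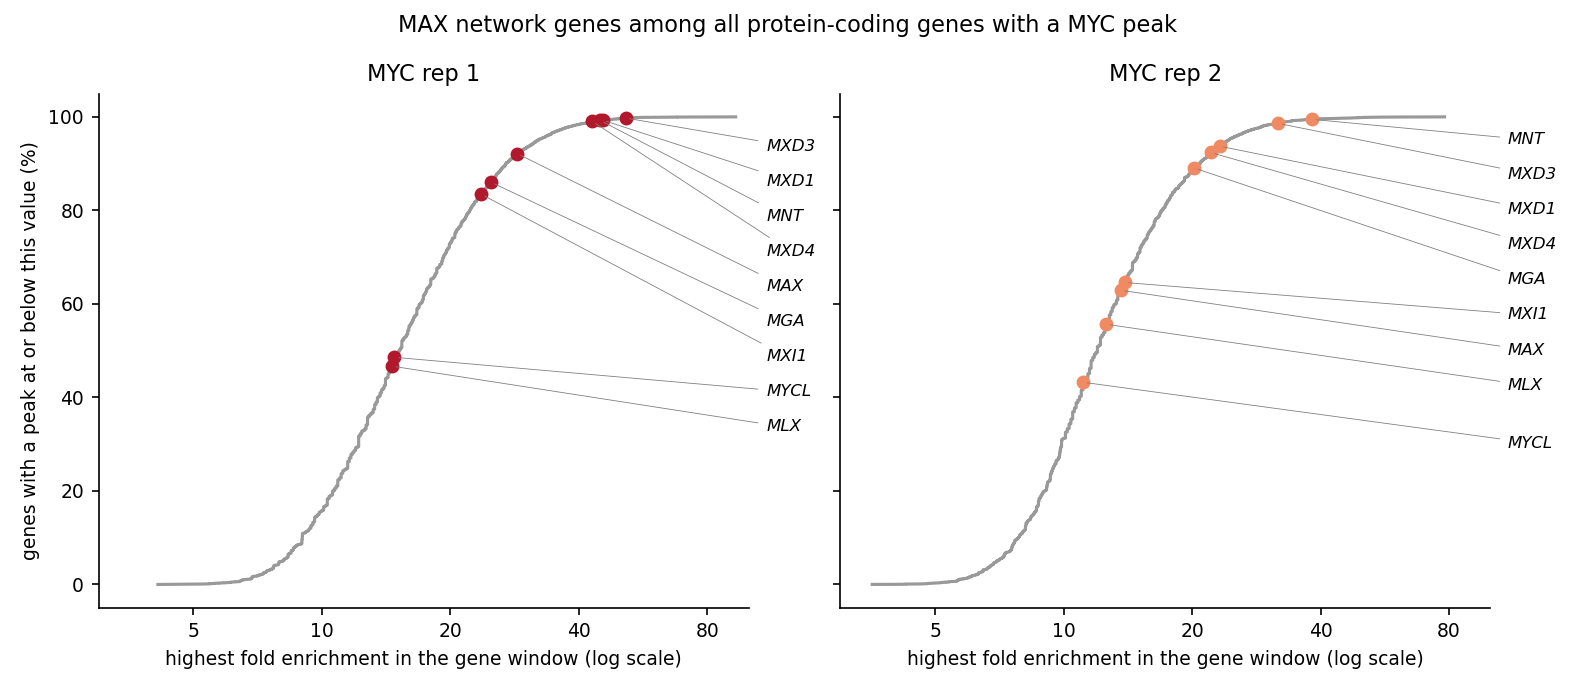
The grey curve is the cumulative share of protein-coding genes with a MYC peak against the highest fold enrichment in their window (log scale), 1 panel per MYC list, with the 9 network genes as points. MXD3, MNT, MXD1 and MXD4 were at the top of both curves, MLX and MYCL near the middle, and MAX and MXI1 were lower on the curve of replicate 2 than on that of replicate 1.

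At these genes HSF1 peaks were fewer than MYC peaks and had lower fold enrichment. HSF1 replicate 1 had a peak at 3 of the 10 (MXD1, MXD4 and MNT), against 16.5% of all protein-coding genes. HSF1 replicate 2 had one at 5 of the 10, MAX and MXD3 in addition, against 12.3% of all genes. Both lists had a peak at 3 genes, against 7.81% of all genes, and the same 3 were called within 1 kb of a start site, against 3.49%. Within 5 kb of the 5′ end of the gene the count was 1, and at a −log10 p-value of at least 10 it was 0. No share over all genes is given for these rules, so the lower counts cannot be read as a trait of the network. MYCN, MYCL, MXI1, MLX and MGA had no HSF1 peak in either list. Over the genes with a peak, the median HSF1 fold enrichment was 5.38 in replicate 1 and 4.54 in replicate 2 for the network, against 5.29 and 5.41 for all genes, and pileups at the 8 HSF1 peaks were 6 to 16 fragments.

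MXD4 had the highest HSF1 fold enrichment of the network, at 8.12 in replicate 1 and 6.49 in replicate 2, with −log10 p-values of 12.9 and 9.45. These fold enrichments stood above 84.3% and 64.5% of the genes with an HSF1 peak. By pileup the MXD4 peaks (12 and 9 fragments) were below those of MXD1 (16 and 10) and MNT (16 and 13). The MYC and HSF1 ratios share the same IgG library as background. The HSF1 summit of replicate 1 fell on the same base as the MYC summit, and that of replicate 2 was 72 bp from it, both within the stretch printed above. At MXD1 the HSF1 peaks had 5.38 and 3.83, with summits 238 and 290 bp from the MYC summits. MXD1 and MXD4 were the only network genes where the HSF1 peaks of the 2 lists overlapped each other.

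MNT had an HSF1 peak in each list but at different places, at the 5′ end in replicate 1 (4.72, 172 bp from the MYC summit) and in intron 4 in replicate 2 (3.27, 24 bp from the MYC summit), so neither place was called in both. The intron 4 value was near the bottom of its list, with 0.73% of genes with an HSF1 peak below it. MXD3 had an HSF1 peak of 5.27 in replicate 2 alone, 30 bp from the MYC summit. The MAX peak, 4.54 and also in replicate 2 alone, was the smallest by pileup, at 6 fragments, and ended 178 bp short of the MYC peak. At these genes the MYC fold enrichment was 2.99 to 9.52 times that of the paired HSF1 peak.

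Compared by replicate, MYC and HSF1 peaks overlapped by at least 1 bp at 3 network genes in replicate 1, against 13.2% of all protein-coding genes, and at 4 in replicate 2, against 6.96%. Both replicates had such an overlap at MXD1, MXD4 and MNT, against 4.20% of all genes. Of the 8 HSF1 peaks of the network, all but that of MAX lay wholly inside a MYC peak of the same replicate number. In the whole lists, which are not limited to gene windows, 42.6% of HSF1 peaks of replicate 1 and 19.8% of replicate 2 lay wholly inside a MYC peak. The shares that overlapped a MYC peak at all were higher in both lists. The MYC peaks of the network were also longer (median 924 and 835 bp against 460 and 451 bp), which makes it easier to hold a whole HSF1 peak. The 8 HSF1 peaks came from 5 genes, so their place inside MYC peaks cannot be read as a trait of the network.

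The network genes with overlapping HSF1 peaks were also the 4 with the highest MYC fold enrichment, and this has to be read against the genome. The 9103 genes with a peak in both MYC lists were put into 4 groups of equal size by mean MYC fold enrichment. An HSF1 peak in both lists was found at 8.26% of the lowest group, 12.1% of the second, 14.2% of the third and 22.2% of the highest. Overlapping peaks in both replicates were found at 3.56%, 6.95%, 8.57% and 17.9%. MXD1, MXD3, MXD4, MNT, MGA and MAX were in the highest group, which began at 19.0, and 3 of these 6 had overlapping peaks in both replicates. What part the height of the MYC signal has in the HSF1 calls was not tested.

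**Figure D4:**
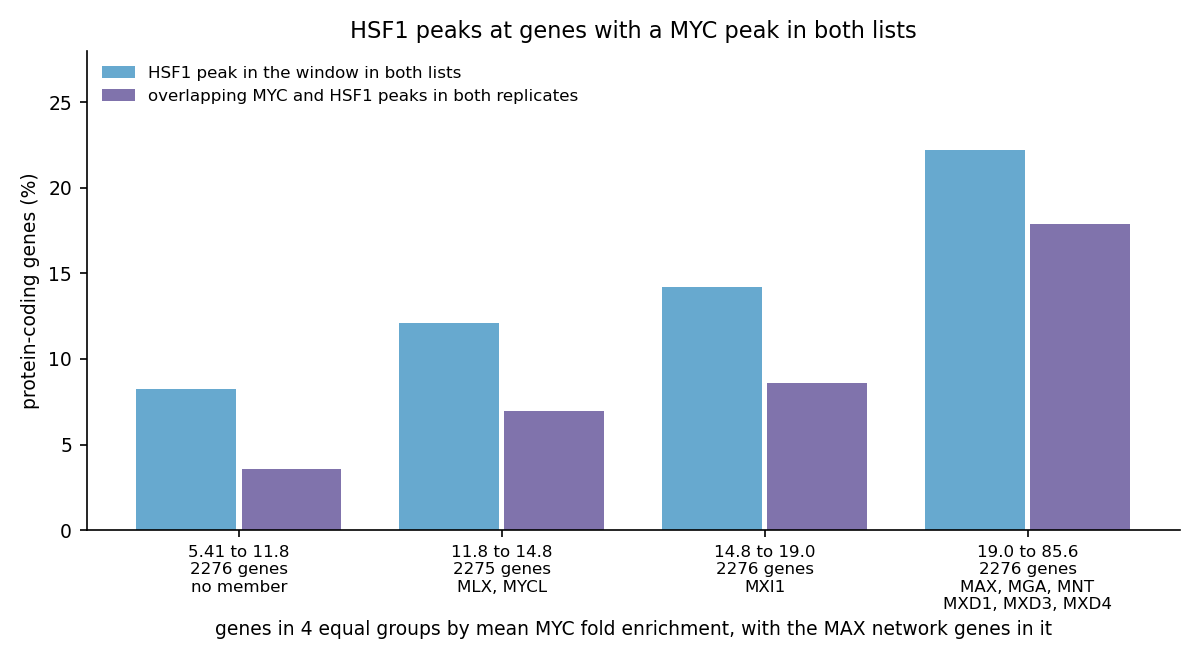
Bars give the share of protein-coding genes with an HSF1 peak in both lists (blue) and with overlapping MYC and HSF1 peaks in both replicates (purple), in 4 equal groups of the 9103 genes by mean MYC fold enrichment, with the network genes of each group named. Both shares were highest in the top group (22.2% and 17.9%), which held 6 of the 9 network genes.

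The motifs of both factors were searched as letters on both strands. CACGTG was found within 100 bp of the strongest MYC summit of either list in MAX and MXD4, which is 2 of 9 genes, against 12.6% of the 9103 genes with a peak in both lists. The count was 1 without MYC replicate 1, where MXD4 was lost with its summit 115 bp from the E-box, and 7 within 250 bp. No share over all genes is given for 250 bp, so the 7 cannot be read as a trait of the network. Within whole peaks, 9 of the 19 network peaks of MYC replicate 1 and 8 of the 18 of replicate 2 held the E-box, against 18.5% and 21.3% of all MYC peaks, but the network peaks were longer (median 924 and 835 bp against 460 and 451 bp). In the RefSeq promoters (GRCh38.p14, 250 bases before to 50 after the start), matched for 10 of 10 genes, CACGTG was present in MLX, MNT and MXD4 and in 7.26% of 35116 promoters. CACGCG was present in MXD3, MXI1 and MGA and in 11.4% of promoters.

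A heat shock element was defined as 3 alternating GAA and TTC units with 2 free bases between them, starting with either. None of the 8 HSF1 peaks of the network held one, against 10.2% of all HSF1 peaks of replicate 1 and 13.6% of replicate 2. The only such element in a MYC site of the network was at the canonical promoter of MGA, 208 bp upstream of the canonical start, where no HSF1 peak was called in either list. It is shown because it is the only match, with the 13 bases in capitals:
MGA, chr15:41660183-41660211, plus strand: tttcttggTTCTAGAACCTTCagtaggct
The element was present in 0.49% of all RefSeq promoters. No match says only that these letters are not in the peak.

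The genes that act with the network were described through 6 lists of 46 genes in all, of which 29 (63.0%) had a MYC peak in both lists and 10 (21.7%) an HSF1 peak in both, against 45.4% and 7.81% of all protein-coding genes. Of the other network genes, MYC had MYC peaks of 19.7 and 8.47 and HSF1 peaks of 4.57 and 4.67, MLXIP, the partner of MLX, had the highest MYC values at 33.7 and 26.3, and MLXIPL had no peak. Of the 7 genes of SIN3 and related corepressors, which serve the MXD proteins and other repressors, 4 had a MYC peak in both lists. SAP30, a SIN3 subunit, was highest at 23.1 and 19.2, SIN3B had no MYC peak, and HDAC2 and SAP30 had HSF1 peaks in both lists. Of the 9 MYC coactivator genes, 6 had a MYC peak in both lists. The helicase gene RUVBL1 was highest at 31.7 and 17.6, TRRAP had no peak, and RUVBL2 and ZBTB17 had HSF1 peaks in both lists.

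Of the 8 genes of MYC turnover, 7 had a MYC peak in both lists. The kinase gene AURKA was highest at 39.8 and 20.4, and SKP2, CIP2A and GSK3B had HSF1 peaks in both lists. Of the 9 genes of the noncanonical Polycomb complex that contains MGA, 6 had a MYC peak in both lists. RYBP was highest at 34.0 and 29.1, YAF2 had no peak, and CBX3 alone had HSF1 peaks in both, at 29.1 and 15.8. Of the 10 other E-box-binding bHLH genes, which read the same letters without MAX, 4 had a MYC peak in both lists, TFEB was highest at 14.3 and 11.5, USF2 had no peak and BHLHE40 had HSF1 peaks in both.

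By the median of mean MYC fold enrichment over genes with a peak in both lists, the network genes were at 22.5. Of the other network genes only MLXIP (mean 30.0) and MYC (mean 14.1) had such peaks, and they lay on either side of that value. The coactivators were at 19.0, the corepressors at 17.6, the Polycomb complex at 15.0, turnover at 12.0 and the other bHLH genes at 12.2. The protein-coding genes with values most like MXD3 over the 4 lists, by the Euclidean distance of log2(1 + highest fold enrichment), were ZFYVE27 (distance 0.302), ARSG (0.414) and BECN1 (0.437). ZFYVE27 had MYC values of 48.8 and 32.8 and, as MXD3, an HSF1 peak in replicate 2 alone (4.13).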

How the data were processed

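The 4 deposited peak lists of OVCAR8 CUT&RUN libraries were analysed. Reads had been trimmed by the authors and mapped with Bowtie 2 to the GRCh38/hg38 build, and MACS 2.2.9.1 was run per library against 1 IgG library, which the headers number 2 and the labels leave unnumbered. Per the file headers, duplicate fragments were kept once and the larger library was scaled to the smaller. For each peak the authors gave the pileup (a signal in fragments at the summit), the −log10 p-value, a −log10 q-value that was not used, and the fold enrichment (a ratio of antibody to IgG signal). Without read counts in the lists, no model, interval or test was applied, and duplicate removal and the scaling bear on every ratio.

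Peaks on chromosomes 1 to 22, X and Y were assigned to genes by overlap of 1 bp with the window, using GENCODE release 44 in Python 3.11.15 with pandas 2.3.3, numpy 2.4.6, pysam 0.24.0 and matplotlib 3.10.9. A summit was placed against all annotated start sites of a gene and the Ensembl canonical transcript. The genes, the lists and the rules were chosen with earlier results of these data known. All 10 network genes are named. Of the corepressor list, 1 gene is not reported here and was left out of its counts. Of the other lists, the gene with the highest mean MYC fold enrichment, genes without a MYC peak and genes with an HSF1 peak in both lists are named, together with neighbours nearest to a peak and the 3 genes most like the highest network gene. The code of the window rule was run on simulated peaks, with 200 of 200 planted genes recovered in each of 20 runs over 20033 genes. Each peak was planted inside the window of its gene, so this checks the code and not the choice of rule. Alternatives covered the window, the union of replicates, each replicate left out, thresholds, overlap, start-site distance and motif distance.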

Additional observations from a re-analysis of the deposited data

How the results depend on the processing

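The 9 genes with a MYC peak in both lists stayed at 8 or 9 under the alternatives tried, with 8 within 5 kb of the 5′ end, where MXD1 has its peak outside. The 3 genes with an HSF1 peak in both lists became 1 within 5 kb of the 5′ end, 5 in the union of the lists, 3 to 5 with 1 HSF1 list left out and 0 at a −log10 p-value of at least 10. The 3 genes with overlapping peaks became 1 within 5 kb of the 5′ end and 0 at that HSF1 threshold, and ranged from 3 to 4 with a list left out. Requiring the 2 HSF1 peaks to overlap each other, chosen after the data were seen, left 2 genes in either count. The strongest summit was within 200 bp of a start site in both lists at 4 genes, and within 1 kb of the 5′ end of the gene at 6. An E-box was near it at 7 genes within 250 bp, at 5 with CACGCG added, and at 1 to 2 with a list left out. These counts have no share over all genes beside them. The same holds for the counts within 5 kb of the 5′ end, at the HSF1 threshold and with overlapping HSF1 peaks. Over all protein-coding genes the share with a peak was 64.1% in the union of MYC lists, 21.1% in the union of HSF1 lists, 3.49% for HSF1 near start sites and 12.3% to 63.3% in single lists. The cause of these shifts beyond the rule changed was not tested. The MYC fold enrichments kept their peak when limited to summits within 1 kb of a start site. No paired analysis was possible because the values come from no fitted model that could hold a block, and MYC and HSF1 peaks were only set side by side by replicate number. HSF1 peaks of 6 to 16 fragments limit what a missing call can show.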
